A study of Arabidopsis thaliana with 12 samples.

Results

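The 10 stomatal development genes described here are EPF1, EPF2, TMM, ERECTA, ERL1, ERL2, SPCH, MUTE, FAMA and ICE1, taken by locus tag from the RefSeq annotation of the Arabidopsis assembly TAIR10.1. They are 10 of the 27444 protein-coding genes on the 5 nuclear chromosomes, and 27034 others had the 10 covered CpG cytosines required for a comparison. CpG methylation was read over each gene body and in bins of 200 bp to 2000 bp on either side. The CpG level of a region is the share of its reads at CpG cytosines that were called methylated, given with a 95% Wilson interval, which covers counting error only.

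The study sequenced enzymatically converted DNA of Arabidopsis thaliana of the ecotype Col-0, from tissue that the labels call leaf and the study's methods describe as plants with their roots removed. Its 12 labelled libraries came from plants treated with SA-CNPs (4 libraries), which are chitosan nanoparticles loaded with salicylic acid, from plants inoculated with the powdery mildew Podosphaera xanthii (4) and from untreated control plants (4). The paper also describes plants given both treatments, a group that no label names. The processed data used here are 1 table of read counts pooled over libraries that it does not name. Neither the number nor the treatments of the pooled libraries are known. There are therefore no replicates and no contrast between treatments, and the tissue pools stomatal lineage cells with other cell types, so the level in guard cells alone cannot be told apart from that of the tissue. Nuclear CpG cytosines had a median of 58 reads and a CpG level of 26.6%. The chloroplast genome, whose CpG sites are generally taken as free of methylation, had a level of 0.367% (0.366% to 0.368%), which was taken as the background of calls without methylation. It is a reference value and not the lowest level in nuclear DNA. The TMM body, for example, had 0.0959% (0.0549% to 0.168%).

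Stomata arise from a lineage of asymmetric divisions in the leaf epidermis. The basic helix-loop-helix factors SPCH, MUTE and FAMA act in that order, each together with ICE1 (also called SCREAM) or its paralog SCRM2, to start the lineage, to make the guard mother cell and to form the guard cell pair. EPF1 and EPF2 are secreted peptides that restrain these steps through the receptor kinases ERECTA, ERL1 and ERL2 and the receptor-like protein TMM, upstream of a MAP kinase cascade that opposes SPCH. In Arabidopsis, EPF2 is known as a gene that the DNA demethylase ROS1 keeps active, and SPCH and FAMA have been described as targets of DNA methylation in dry air. CpG methylation inside a plant gene is commonplace in long, steadily expressed genes, where it spares the ends of the gene.

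The gene bodies fell into 3 forms. EPF1, EPF2, TMM, MUTE and FAMA had levels under 1%. The 3 ERECTA family receptor kinases had levels of 24.6% to 36.2%. SPCH and ICE1 lay between, at 8.70% and 14.1%, each with its methylation in a short stretch. Every CpG cytosine in the 10 bodies was covered, with a median of 55 to 62.5 reads by gene.

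**Figure D1:**
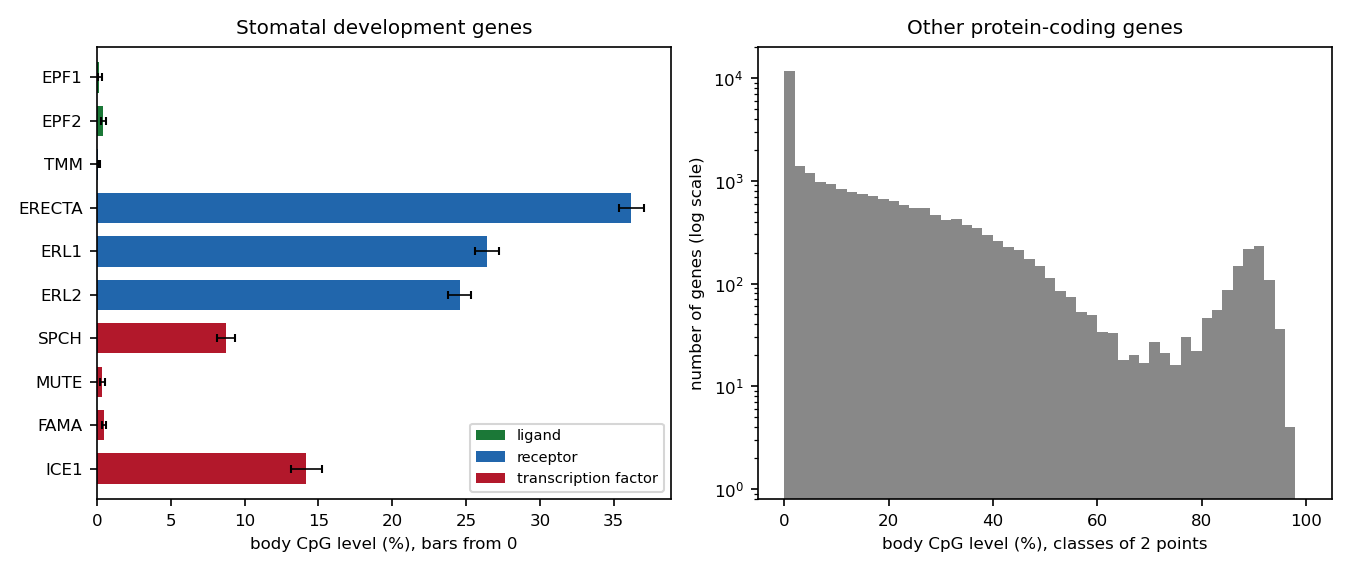
Left, CpG level of each gene body in percent, with 95% Wilson intervals as error bars and the role of the gene by color. Right, number of other protein-coding genes (log scale) by body level. ERECTA reached 36.2%, whereas EPF1, EPF2, TMM, MUTE and FAMA were under 1%.

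Among the ligands, EPF1 (AT2G20875; chromosome 2, 8982863 to 8983814) had 4 methylated of 3100 reads over 52 cytosines, a level of 0.129% (0.0502% to 0.331%). EPF2 (AT1G34245; chromosome 1, 12472868 to 12473974) had 20 of 5025 reads over 86 cytosines, 0.398% (0.258% to 0.614%). The interval of EPF1 lay below the chloroplast level and that of EPF2 included it. Both genes are short, at 952 and 1107 bp, and no single cytosine in them exceeded 3.23%.

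TMM, a leucine-rich repeat protein that lacks a kinase domain, had the lowest level of the 10 genes. Its body (AT1G80080; chromosome 1, 30127819 to 30129649) held 12 methylated of 12514 reads over 212 cytosines, 0.0959% (0.0549% to 0.168%), and 4.39% of the other protein-coding genes had a lower level. It was also the gene with most CpGs for its length, 57.9 per kb, against 13.8 to 38.8 per kb in the other 9. The gene richest in CpGs was thus the one with the smallest share of methylated reads.

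All 3 receptor kinases of the ERECTA family were body-methylated. ERECTA (AT2G26330; chromosome 2, 11208080 to 11214662) had 4520 methylated of 12490 reads, 36.2% (35.4% to 37.0%), a level above that of 88.2% of the other protein-coding genes. ERL1 (AT5G62230; chromosome 5, 24996129 to 25002439) had 2825 of 10700 reads, 26.4% (25.6% to 27.2%). ERL2 (AT5G07180; chromosome 5, 2227439 to 2233587) had 2901 of 11803 reads, 24.6% (23.8% to 25.4%). The interval of ERECTA did not overlap those of its paralogs, and those of ERL1 and ERL2 lay close together without overlap. Plant-to-plant spread could not be set beside these differences.

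Methylation at single cytosines was close to all-or-none in ERECTA and ERL1 and less so in ERL2. ERECTA had 81 of 202 cytosines at 25% or more, the minimum for a methylated cytosine here, and 75 of them were over 75%. In ERL1 50 of 55 such cytosines were over 75%, and in ERL2 45 of 61, with the other 16 at 25% to 75%. The levels of these bodies therefore came from a minority of highly methylated cytosines among unmethylated ones.

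The methylated stretches lay at different places in the paralogs. The reference used here gives neither strand nor exons, so positions are counted from the end of the gene with the lower coordinate, and each gene was divided from that end into 10 parts of equal length. In ERECTA methylated cytosines began 440 bp from that end and stopped 2201 bp before the other, with the highest level, 91.5%, in part 3 of the gene. ERL2 had a similar layout, with methylated cytosines from 766 bp on to 2172 bp before the far end and 66.2% in its part 3. ERL1 was unmethylated over parts 1 to 4 (0.223% to 0.606%), and its methylated cytosines lay from 2965 bp on to 782 bp before the far end, highest at 69.0% in part 9. All 3 genes were at or near background in the 200 bp inside both ends, at no more than 1.42%.

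The level of the receptor kinases was typical of genes of their size. The 179 protein-coding genes of 6149 to 6583 bp, the lengths of ERL2 and ERECTA, had a median body level of 35.6% (quartiles 22.1% and 44.1%), and 86.0% of them were over 10%. ERECTA was near that median, and ERL1 and ERL2 were in the lower part of the quartile range.

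Of the transcription factors, MUTE and FAMA had bodies at background. MUTE (AT3G06120; chromosome 3, 1846442 to 1848259) had 16 methylated of 4951 reads over 78 cytosines, 0.323% (0.199% to 0.524%). FAMA (AT3G24140; chromosome 3, 8715118 to 8718211) had 33 of 7270 reads over 132 cytosines, 0.454% (0.323% to 0.637%). No cytosine of either body exceeded 4.26%.

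SPCH, which starts the lineage, carried methylation in its body. The gene (AT5G53210; chromosome 5, 21586219 to 21589255) had 674 methylated of 7745 reads over 144 cytosines, 8.70% (8.09% to 9.35%). Of its 10 parts only parts 6 and 7 were methylated, at 20.3% and 38.2%, and the other 8 were at 0% to 0.516%. None of its 144 cytosines exceeded 67.3%.

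ICE1, the partner of the other 3 factors, had the highest level among them. Its body (AT3G26744; chromosome 3, 9832667 to 9835279) had 597 methylated of 4224 reads over 72 cytosines, 14.1% (13.1% to 15.2%). Methylation lay in parts 2 to 4 of the gene, at 36.1%, 59.0% and 30.4%, with no CpG cytosine in part 1 and at most 1.39% in the rest. Of its 14 cytosines at 25% or more, 6 were over 75%.

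**Figure D2:**
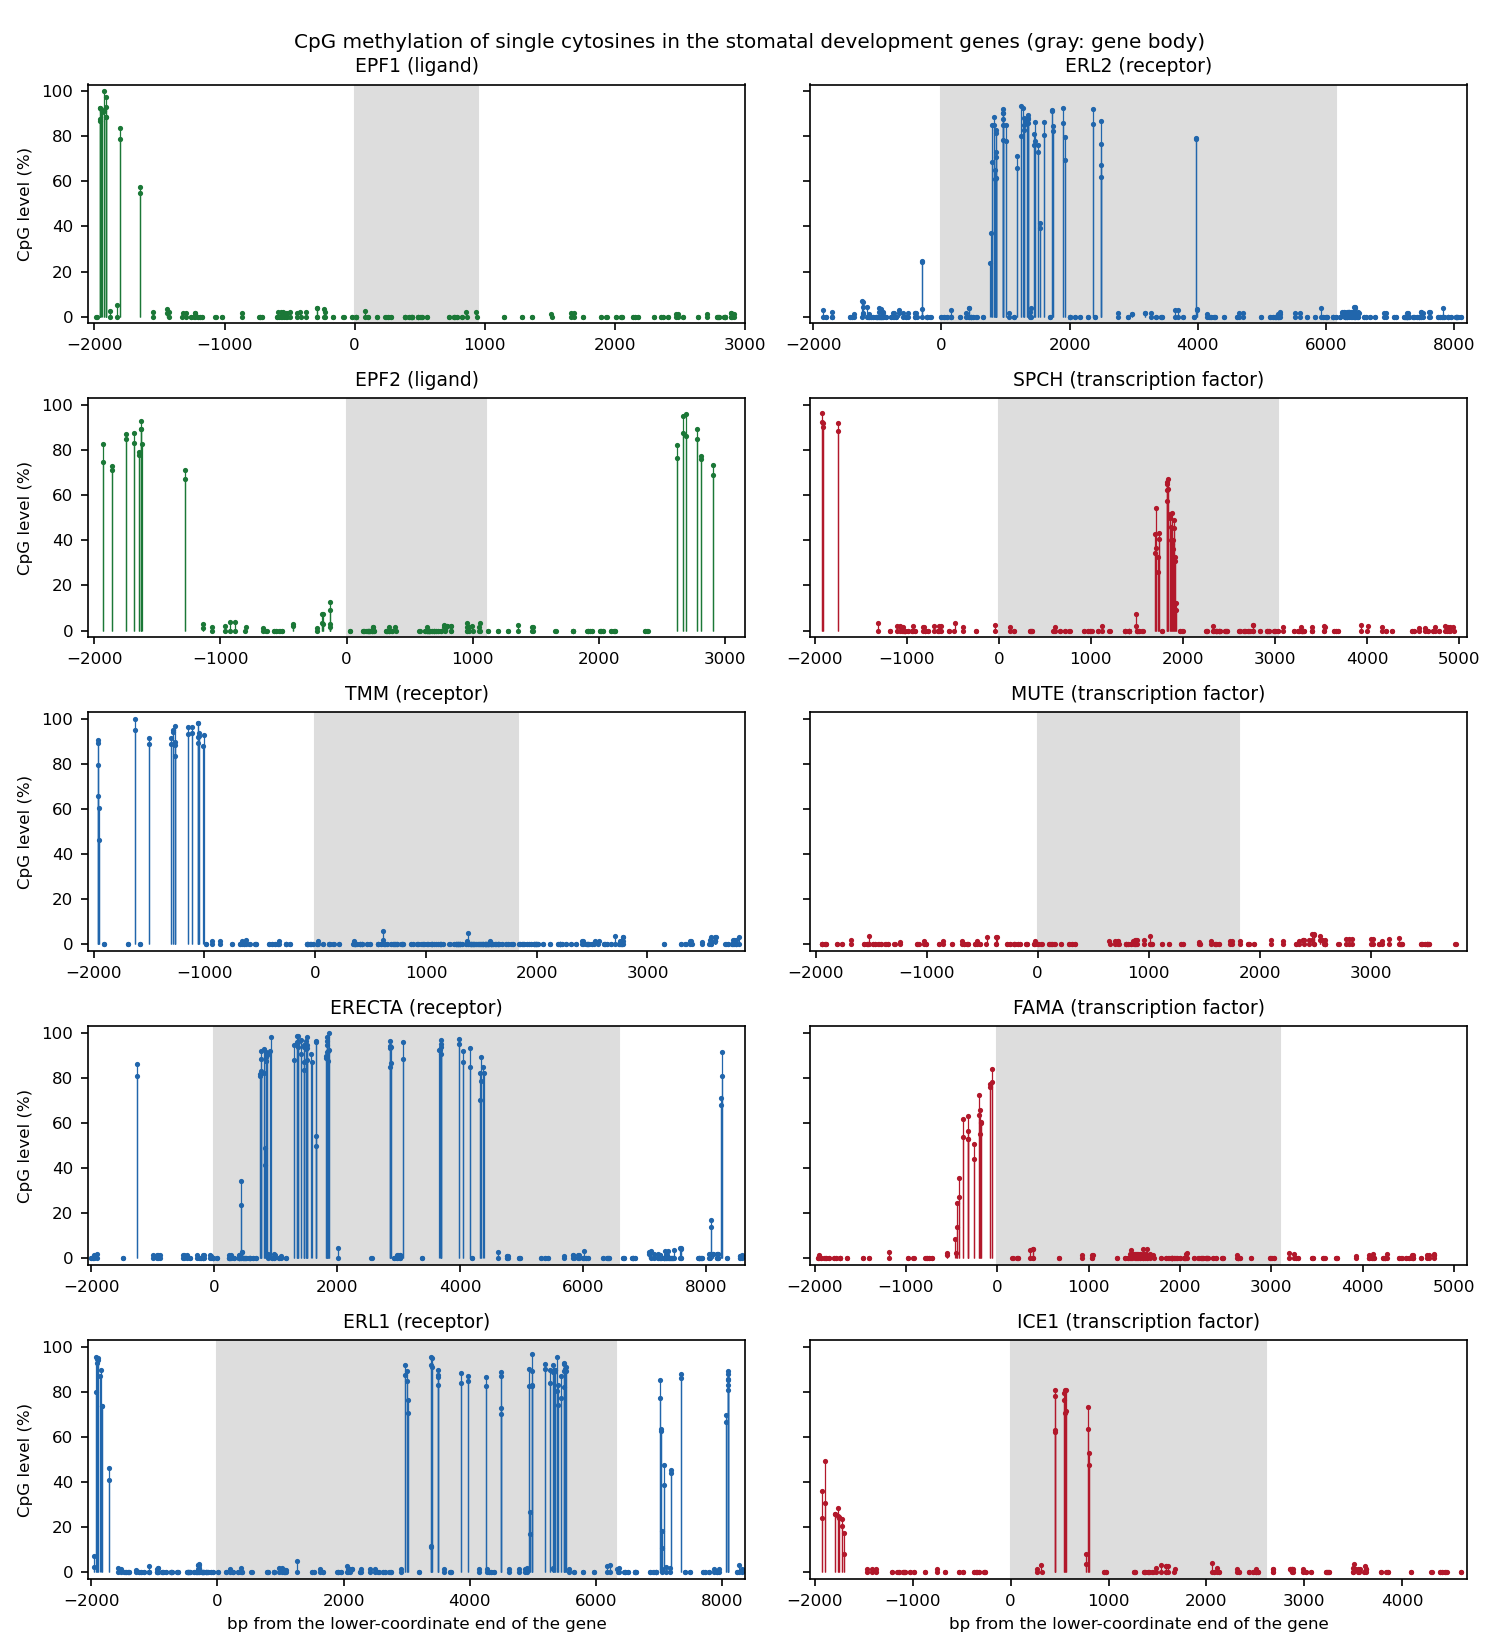
CpG level in percent of each covered cytosine against its distance in bp from the lower-coordinate end of the gene, with the gene body in gray and one panel per gene. Methylated cytosines fill stretches inside ERECTA, ERL1 and ERL2, a short stretch of at most 67.3% inside SPCH and 1 inside ICE1, and in FAMA they stand just outside the gray area.

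As a list the 10 genes had body levels close to those of the genome's other genes. Their median body level was 4.58% (quartiles 0.342% and 22.0%), against 4.76% in the other protein-coding genes (0.386% and 21.4%). A body level over 10% was found in 4 of the 10, near the 40.3% of all protein-coding genes. A level under 1% was found in 5 of the 10, where the share of all protein-coding genes was 39.1%. These 5 genes together had 85 methylated of 32860 reads, 0.259% (0.209% to 0.320%), below the chloroplast level. Among the 16830 protein-coding genes of 952 to 3094 bp, the lengths spanned by the other 7 genes of the list, the median level was 2.28%, 31.8% were over 10% and 44.4% were under 1%.

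Beside the genes, 190 of the 200 bins held the 2 or more CpG cytosines needed, and 159 of them were under 2%. A level of 25% or more was found in 24 bins, 12.6% of those read, against 20.4% of the bins beside all protein-coding genes. At least 1 such bin lay beside 8 of the 10 genes, where the share of all protein-coding genes was 75.2%. The exceptions were MUTE and ERL2. Of the 24 bins, 14 overlapped another annotated locus, and 18 were on the lower-coordinate side.

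**Figure D3:**
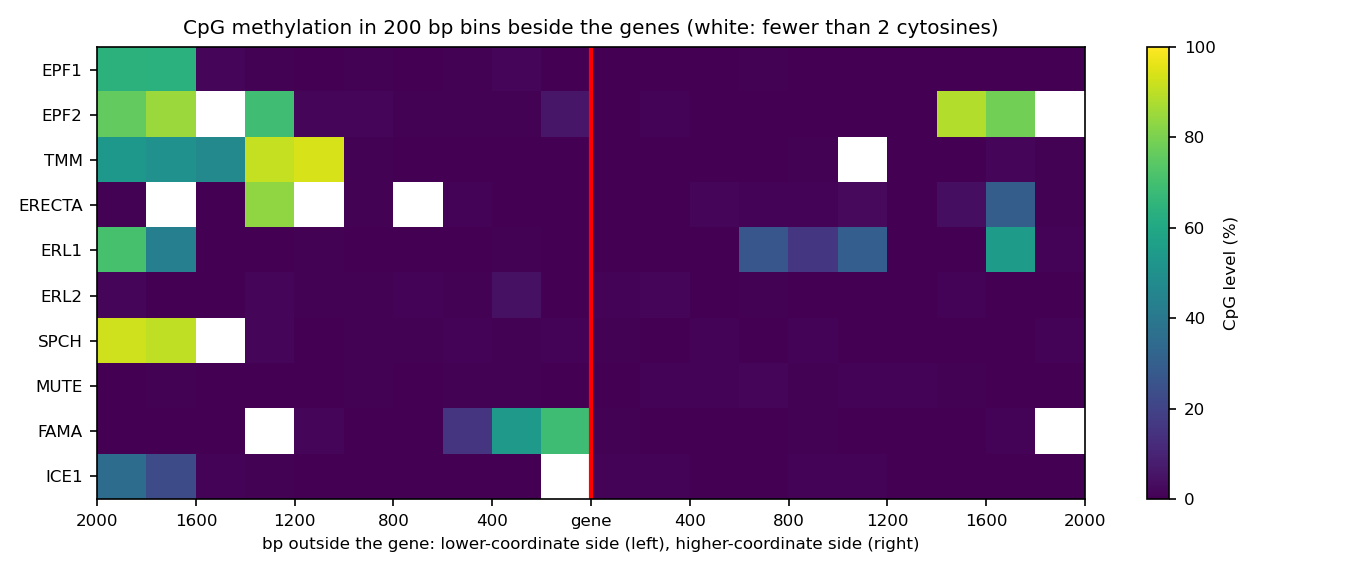
CpG level in percent (color) of the 200 bp bins to 2000 bp on the lower-coordinate side (left) and the higher-coordinate side (right) of each gene, with white bins holding fewer than 2 cytosines. FAMA alone is at 25% or more in the bin next to the gene, at 68.9%, and such bins of the other genes lie farther out.

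MUTE stood in the widest unmethylated surroundings of the 10 genes. Its flanks had levels of 0.259% on the lower and 0.704% on the higher side, and the nearest cytosine at 25% or more was 10682 bp away on the lower and 8781 bp away on the higher side. In the other protein-coding genes the median distances were 1523 bp (quartiles 601 and 3525 bp) on the lower side and 1507.5 bp (600 and 3477.5 bp) on the higher side. The distances of MUTE were beyond the upper quartile on both sides. ERL2, at 2506 and 6635 bp, was the only other gene of the list with both distances over 2000 bp.

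EPF2 was an unmethylated gene between methylated blocks on both sides. On the lower side the bin 1201 to 1400 bp out had 69.3% over 2 cytosines, and the bins 1601 to 1800 and 1801 to 2000 bp out had 84.9% and 76.0%. The last 2 overlapped the pseudogene AT1G34240, and EPF2 was the only gene of the 10 with a pseudogene within 2000 bp, which 5.55% of all protein-coding genes have. On the higher side the bins 1401 to 1600 and 1601 to 1800 bp out had 88.4% and 78.5%, with no annotated locus there. The nearest methylated cytosines were 1283 and 1512 bp from the gene, close to the genome's medians.

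EPF2 had weak methylation in the bin next to it on the lower side, apart from the blocks farther out. This bin had 31 methylated of 520 reads, 5.96% (4.23% to 8.34%), whereas the next bin outward had 0.667% and the first 200 bp inside the gene had 0 of 900 (up to 0.425%). The 2 cytosines of this bin nearest to EPF2 were at 2.94% and 1.75%. The next CpG outward, only a few bp away, had the highest levels of the bin, at 12.5% and 8.93%. The cytosines beyond it were lower, at 3.08% to 7.35%. Each cytosine of the bin had only 56 to 72 reads, few of them methylated. The order of these CpGs therefore cannot be told from counting error. EPF1, the other ligand, had methylated bins on the lower side only, at 63.7% and 64.1% in the bins 1601 to 2000 bp out, which lie in the neighboring gene LIP1 (AT2G20860).

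Much of the flank methylation of TMM, SPCH and the receptor kinases lay in other genes. All 5 methylated bins of TMM, 1001 to 2000 bp out on the lower side, overlapped SUS2 (AT1G80070) and ranged from 47.2% to 93.8%. SPCH had 90.4% and 92.8% in the bins 1601 to 2000 bp out on the lower side, the farther of them in TRY (AT5G53200), which encodes a repressor of leaf hair formation. ERL1 had 3 methylated bins on the higher side in AT5G62240, at 26.9% to 54.9%, and 2 on the lower side with no annotated locus, at 43.3% and 71.1%. ERECTA had 83.6% in a lower bin with a single CpG and 29.6% in a higher bin in AT2G26340, and ICE1 had 35.5% in its farthest lower bin.

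FAMA was the only gene of the 10 with a level of 25% or more in the bin directly beside it. The bin 1 to 200 bp out on the lower side had 384 methylated of 557 reads, 68.9% (65.0% to 72.6%), the next had 54.3% (49.9% to 58.6%), and the one at 401 to 600 bp had 15.1%. No annotated locus overlaps these bins. Of all protein-coding genes, 13.8% had a bin at 25% or more next to the gene on either side. Inside FAMA, the 200 bp beyond this edge held only 2 cytosines, with 0 of 106 reads methylated (up to 3.50%).

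The methylated cytosines were then grouped into patches, chains of at least 6 cytosines at 25% or more with neighbors no more than 200 bp apart. This definition was chosen after the values of SPCH and FAMA had been seen, so the counts that follow describe the pattern and are no test of it. The bodies of the 10 genes held 12 patches, 5 in ERECTA, 3 in ERL1, 2 in ERL2 and 1 each in SPCH and ICE1, and 11 more reached to within 2000 bp of a gene. A patch level of 75% or less was found for 11 of the 23, which is near the 45.7% among all patches in or near protein-coding genes. The body patches held 98.5% of the methylated reads of the body in ERECTA, 81.0% in ERL1, 94.3% in ERL2, 96.6% in SPCH and 73.0% in ICE1.

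In SPCH the patch spanned 213 bp (chromosome 5, 21587919 to 21588131), 1700 to 1912 bp from the lower-coordinate end. It held 14 CpGs, 65.7 per kb against 23.7 per kb over the gene, and 651 of 1513 reads were methylated, 43.0% (40.6% to 45.5%). All 26 of its cytosines at 25% or more were at or below 67.3%. Outside the patch the body had 23 methylated of 6232 reads, 0.369% (0.246% to 0.553%), an interval that included the chloroplast level.

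The levels along the SPCH patch were not uniform. The highest CpGs were 3 near the middle, at 64.5%, 61.7% and 64.9% with both strands summed, 1826 to 1840 bp from the lower-coordinate end. The other methylated CpGs ranged from 28.6% to 50.8%. A single CpG among them, at position 21587991 in the context tCGa, was unmethylated in 36 plus-strand and 63 minus-strand reads. Plus and minus strands had 45.6% and 41.1%, with a median difference of 4.04 points within a CpG and a largest of 17.9 points, and the other 13 CpGs were partly methylated on both strands.

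The FAMA patch spanned 366 bp (chromosome 3, 8714695 to 8715060), 58 to 423 bp outside the gene. Its 20 cytosines were all at 25% or more, 690 of 1163 reads were methylated, 59.3% (56.5% to 62.1%), and 16 of the 20 were between 25% and 75%. The level was lowest at the far end, where the CpG 423 bp out had 32.0%, and highest at the gene, where those 75 and 59 bp out had 76.9% and 80.6%. The 7 CpGs between them had 47.3% to 68.6%. The strands were at 58.6% and 60.0%, with a median difference of 7.17 points within a CpG.

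**Figure D4:**
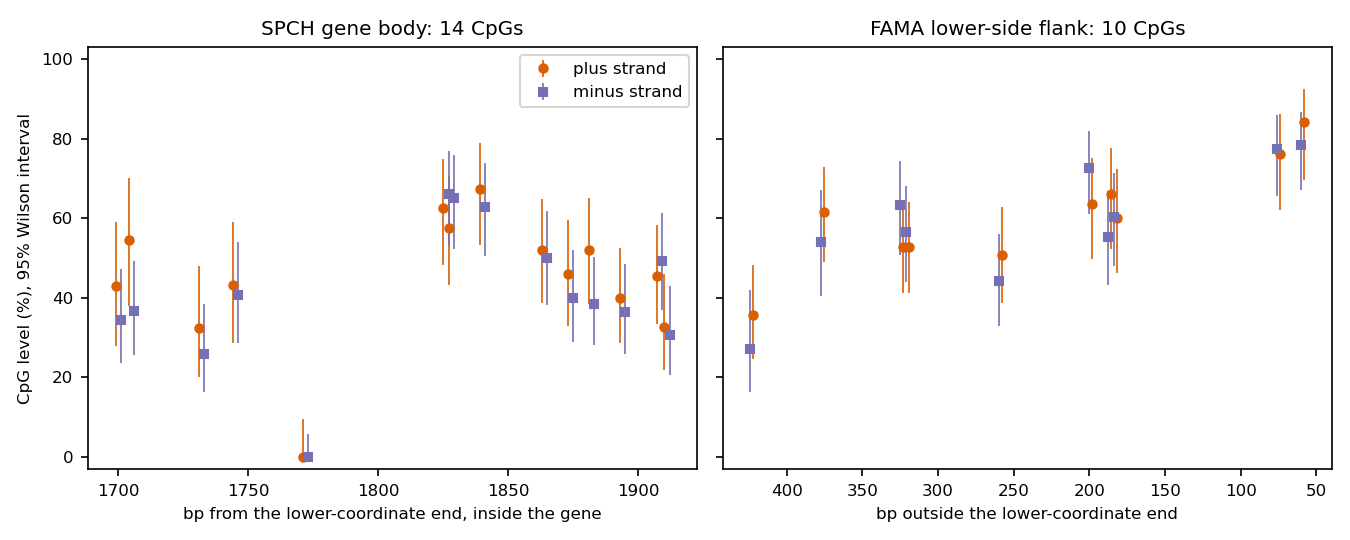
CpG level in percent of each CpG of the SPCH body patch and the FAMA flank patch, by strand, with 95% Wilson intervals, against the distance in bp from the lower-coordinate end of the gene (inside SPCH, outside FAMA, with the gene to the right). In SPCH 13 of the 14 CpGs are partly methylated on both strands and 1 is at 0%, and in FAMA the CpGs nearest to the gene are highest, at 76.9% and 80.6%.

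Such partial methylation was infrequent among long patches in the genome. Of the 9 patches in or near the 10 genes with 20 or more methylated cytosines, 3 had at least 75% of their cytosines between 25% and 75%, against 0.902% of the 15194 such patches in or near all protein-coding genes. They were the SPCH body patch, the FAMA flank patch and a patch of 712 bp beside ICE1. The last lay 1762 bp outside the lower-coordinate end, at 57.8% (55.9% to 59.7%). The FAMA patch, with 20 methylated cytosines, and the ICE1 patch, with 76.5% of cytosines between 25% and 75%, lay at or near these cutoffs. The count of 3 therefore depends on them and is no test. Among all patches in or near protein-coding genes, with 6 or more methylated cytosines, the share was 4.93% of 36294. The same 3 of the 23 patches described here had it. Of the 4 long patches in bodies of the list, that of SPCH alone had no cytosine over 75%, as had 0.362% of long body patches genome-wide, in 41 genes. Among all body patches with 6 or more methylated cytosines the share was 3.13%, and SPCH was the only such case among the 12 of the list. Read depth at the SPCH and FAMA patches (medians of 57.5 and 61 reads) was near the nuclear median of 58. The ICE1 patch was read more deeply, at a median of 74.5. A pooled table does not separate a mixture of libraries or cells with and without methylation from partial methylation in each, and the part of either was not tested.

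The receptor kinases had patches of the other kind. The longest runs in ERECTA, 36 of 36 cytosines in 570 bp, and in ERL1, 31 of 34 in 588 bp, had levels of 91.6% (90.3% to 92.6%) and 78.6% (76.8% to 80.4%). ERL2 had a patch of 1161 bp and a level of 66.7% (65.2% to 68.2%), in which 53 of 63 cytosines were at 25% or more and 14 of them no higher than 75%. The ICE1 body patch, with all 10 cytosines methylated at 74.5% (70.8% to 77.9%), was closer to these than to the SPCH patch.

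The wider pathway was read from a list of 37 further genes, of which 11 had a body level over 10% and 17 a level under 1%, beside 40.3% and 39.1% of all protein-coding genes. Of the 11 genes of the EPF and EPFL peptide family, EPF1 and EPF2 included, 10 were under 1%. Of the 14694 protein-coding genes of 686 to 2481 bp, the lengths spanned by this family, 53.3% were under 1%. EPFL6 alone sets the upper end of that range, so this share includes genes longer than the rest of the family. EPFL9, the peptide STOMAGEN that promotes stomata by competing with EPF2 in Arabidopsis, had 0.453%, EPFL8 had 0 of 1472 reads methylated (up to 0.260%), and EPFL7 was the exception at 4.45%.

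All 6 leucine-rich repeat receptor kinases of both lists were over 10%. Besides the ERECTA family these were the co-receptors SERK1, SERK2 and BAK1, at 37.2%, 54.3% and 41.2%. Over 10% were also 40.3% of all protein-coding genes and 77.1% of the 2718 as long as these 6 genes (3960 to 6583 bp), so most genes of that length were methylated likewise. In the MAP kinase cascade below the receptors, 2 of 7 genes were over 10%, few enough that the count says little beside the 40.3% of all protein-coding genes. YDA, the kinase at its head, had 56.3%, the highest level of both lists, and MPK6 had 17.2%, whereas its close relative MPK3 had 1.11% and MKK9 had 0.112%. BIN2, a brassinosteroid pathway kinase that acts on YDA and SPCH, had 13.3%.

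Among pairs of related transcription factors, ICE1 and SCRM2 differed in body level. SCRM2, which overlaps with ICE1 in function, had 0.413% (0.282% to 0.604%), against 14.1% in ICE1. FLP and MYB88, a pair of MYB factors that end divisions in the lineage, had 0.272% (0.156% to 0.475%) and 0.486% (0.332% to 0.711%), overlapping intervals close to the levels of FAMA and MUTE. The homeodomain factors HDG2 and ATML1 had 5.22% and 5.44%. SOL1 and SOL2, regulators of lineage progression, had 24.1% and 16.0%. The polarity genes BASL and POLAR had 0.159% and 0.314%, whereas BRXL2, which acts with BASL, had 17.3%. RBR1, the retinoblastoma homolog that binds FAMA, had 33.7%, and the cyclin CYCA2;3 had 18.9%.

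**Figure D5:**
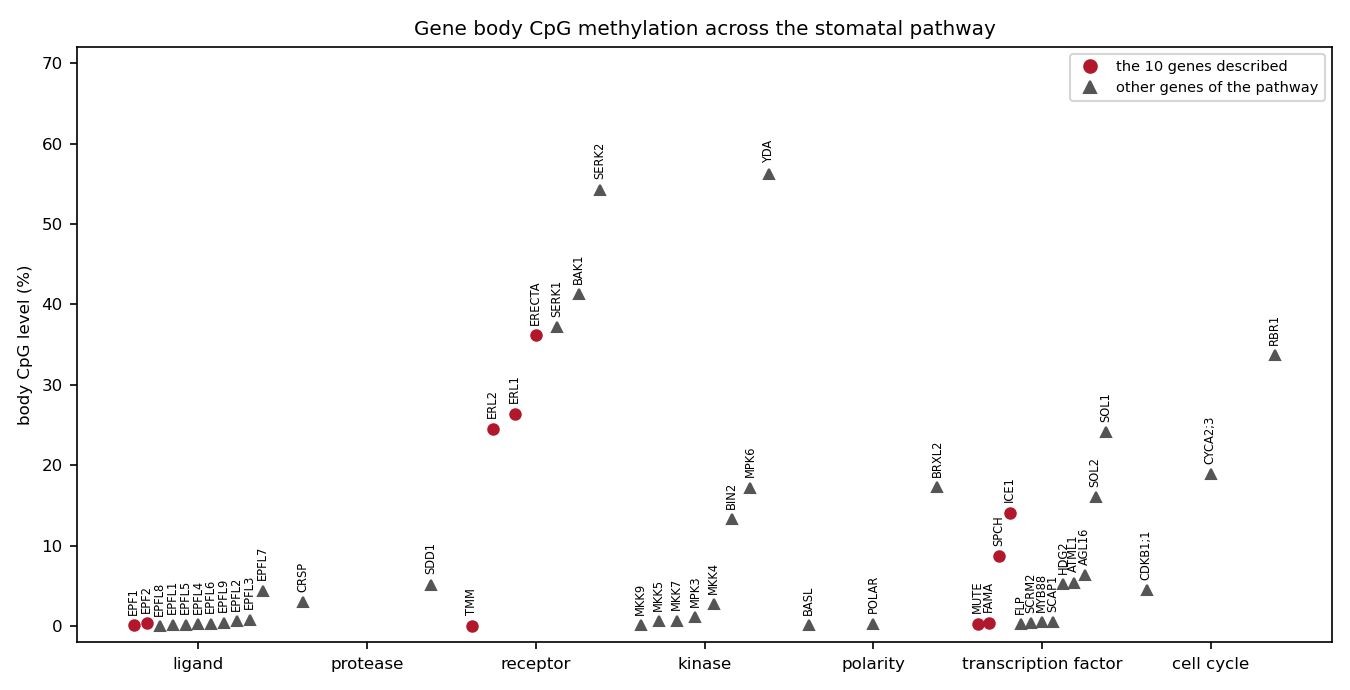
Body CpG level in percent of the 10 genes (red circles) and of 37 other genes of the pathway (gray triangles), grouped by role along the horizontal axis, which has no scale within a group. Ligands sit near 0% with EPFL7 highest at 4.45%, and the receptor kinases range from 24.6% in ERL2 to 54.3% in SERK2.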

How the data were processed

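Per the paper, the authors converted plant DNA enzymatically, sequenced read pairs, filtered the pairs by Trimmomatic, mapped them on TAIR10.1 by Bismark running Bowtie 2, kept unique hits, removed duplicates and wrote a cytosine report. The deposited values are raw counts of methylated and of unmethylated reads per CpG cytosine and strand, not normalized and pooled over libraries that are not given in the sources used here. Every covered cytosine had at least 5 reads. No library was analysed on its own, and cytosines outside CpGs were not analysed here.

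Genes, positions and symbols were taken from the RefSeq table of TAIR10.1. All 10 genes and all 37 pathway genes were found by locus tag. ERECTA and FAMA are ER and FMA there. A level was methylated over all reads. A body was called at a level over 10% and a bin at 25% or more. With 1 pooled table no test was run: each value was set beside that of all protein-coding genes, and the Wilson intervals treat reads and neighboring cytosines as independent. The 10 genes and the pathway list were chosen with earlier results of these data known. All 10 genes are named. Neighboring loci are named where they cover a called bin, and of the pathway list the genes over 10%, with other examples chosen after their values were seen. Alternatives changed the read minimum, the counting of strands, the averaging, the gene ends, the thresholds and the bins. Levels and patches were first tested on simulated data. Tables were handled with pandas 2.3.3 and numpy 2.4.6 under Python 3.11.15, and drawn with matplotlib 3.10.9.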

Additional observations from a re-analysis of the deposited data

How the results depend on the processing

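Of 98 recomputed values, 91 moved by less than their counting interval or, for counts, by less than 1.5 times. This held for the number of genes with a body level over 10% (4, with 5 at a threshold of 5% and 3 at 20%), the median body level (4.57% to 5.21%), the bins at 25% or more (24, with 18 at 50%, 27 at 10% and 19 where 4 cytosines were required), the genes with such a bin (8, with 7 at 50%) and the patches (23, with 25 for gaps of at most 100 bp and 19 for 400 bp). Some of the alternatives could not move the body levels. Every body cytosine had 10 to 93 reads. A minimum of 10 reads and a cutoff for excess depth of 195 reads therefore removed none of them. Summing the strands of a CpG used the same reads. The unchanged body levels in these alternatives are therefore no evidence of stability. Without the first and last 200 bp of each gene, body levels were 37.4% in ERECTA, 27.9% in ERL1, 27.2% in ERL2, 9.94% in SPCH and 16.4% in ICE1, since the ends held little methylation. In EPF1 the level was 0%, since all 4 methylated reads lay in the ends. With gaps of at most 100 bp, an alternative chosen after seeing the data, the FAMA patch had 55.0%, because its CpGs nearest to the gene were then left out. It then held fewer than the 20 methylated cytosines of a long patch.

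No paired analysis was possible because the table is pooled and carries no replicate numbers. A promoter level was not computed, since the reference gave no strand. The median depth is 58 reads per cytosine, so single cytosines are imprecise, and no value here has an error over plants.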
